A study of Mus musculus with 6 samples.

Results

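On chromosomes 1 to 19 of the mouse testis, 69233 stretches of 500 bp were measured. In 2243 of them (3.24%) the measured DNA methylation levels of single mice lay far apart. Among stretches of intermediate level these were more frequent at low read depth, as described below. The genome was cut into fixed tiles of 500 bp, and a tile was measured where at least 3 cytosine positions had 10 or more reads in all 6 libraries. A tile's level in a mouse was the methylated share of all its reads, in percent. A tile was a member where the highest mouse exceeded the lowest by 25 percentage points or more (its span), and where the single positions that spanned 25 points or more were no fewer than those that did not. The copy of the ribosomal RNA gene repeat on chromosome 17 was left out. The 6 levels themselves chose the members, so their spans and levels are described here without a test.

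CpG methylation is copied at each cell division by the maintenance enzyme DNMT1 and removed through oxidation by TET enzymes, and it is erased and rewritten in the germline. Most of the genome's CpGs are either methylated or unmethylated in nearly every cell, with CpG-rich promoters among the unmethylated. Intermediate levels arise where cells of a tissue differ, where the copies from father and mother differ as at imprinted genes, or where a position varies from animal to animal, as at some retroelement insertions known as metastable epialleles. A level in bulk tissue does not tell whether some cells carry methylation on both copies or all cells on a single copy, and these cannot be told apart here.

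The samples were the right testes of 6 sexually mature male mice of the KM strain, an outbred stock. Hemicastration before puberty had taken the left testis from 3 mice, while 3 sham-operated mice kept both. One library per mouse was made by reduced representation bisulfite sequencing, in which DNA cut by MspI at CCGG was size-selected, converted with bisulfite and sequenced. The labels number the mice 1 to 3 within each group, and values below follow that order, without pairing hemicastrated and sham mice. The libraries held between 64504011 and 78630942 cytosine calls, and 952515 positions had 10 or more reads in all of them. Genotypes of the mice were not analysed here. A C-to-T variant at a CpG also reads as unmethylated, and such variants were not told apart from missing methylation. As a check of the tissue, 11 tiles near the boundaries of 9 imprinted genes methylated on the maternal copy, which male germ cells carry unmethylated, had library medians between 5.99% and 11.7%, and 0 of them was a member. In a wider window of 5000 bp, 24 tiles at these genes included 2 members, in Mest with a mean level of 13.4% and in Peg3 with a mean level of 68.0%. H19 and Rasgrf1 have control regions methylated on the paternal copy. Only Rasgrf1 had tiles measured within 5000 bp, 2 at its start with library medians between 0.259% and 1.88%. These tiles were taken by distance to the gene, and whether they lie in its control region was not examined. They are therefore no check of the paternal mark.

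The sequences below show where the variable cytosines lay in the 250 bases before 6 annotated gene starts (RefSeq, GRCm38.p6, each 5′ to 3′ on the gene's strand). Capitals mark CpGs at which a measured position of a member tile spanned 25 points or more. A CpG in lower case was not measured, lay outside a member tile or spanned less. Tex101 and Dpp7 were on lists drawn up for this work, Gm24463 was among the widest members, and Arhgef2, Septin9 and S100z were chosen after their values were seen. Gm24463 is a predicted gene, at chr9:89066970-89067219 on the plus strand. Arhgef2 is at chr3:88615893-88616142 on the plus strand. Dpp7, which encodes a dipeptidyl peptidase, is at chr2:25356333-25356582 on the minus strand. Septin9, which encodes a filament-forming GTPase, is at chr11:117332063-117332312 on the plus strand. S100z, which encodes a calcium-binding protein, is at chr13:95478656-95478905 on the minus strand. Tex101, which encodes a surface protein of male germ cells, is at chr7:24672051-24672300 on the minus strand.
Gm24463: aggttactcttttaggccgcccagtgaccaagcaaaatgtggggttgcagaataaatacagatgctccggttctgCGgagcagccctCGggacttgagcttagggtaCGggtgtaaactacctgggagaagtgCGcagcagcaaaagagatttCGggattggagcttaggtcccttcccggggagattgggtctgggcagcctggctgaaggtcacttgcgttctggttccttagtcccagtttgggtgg
Arhgef2: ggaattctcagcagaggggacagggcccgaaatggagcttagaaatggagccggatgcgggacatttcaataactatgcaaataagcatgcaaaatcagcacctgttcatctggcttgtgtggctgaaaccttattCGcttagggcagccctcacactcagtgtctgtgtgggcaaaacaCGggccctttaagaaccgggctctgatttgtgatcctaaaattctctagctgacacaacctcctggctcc
Dpp7: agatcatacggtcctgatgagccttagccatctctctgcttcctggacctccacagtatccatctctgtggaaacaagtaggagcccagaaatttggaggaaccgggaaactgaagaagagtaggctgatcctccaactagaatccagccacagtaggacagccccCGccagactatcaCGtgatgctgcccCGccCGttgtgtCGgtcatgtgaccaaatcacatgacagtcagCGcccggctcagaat
Septin9: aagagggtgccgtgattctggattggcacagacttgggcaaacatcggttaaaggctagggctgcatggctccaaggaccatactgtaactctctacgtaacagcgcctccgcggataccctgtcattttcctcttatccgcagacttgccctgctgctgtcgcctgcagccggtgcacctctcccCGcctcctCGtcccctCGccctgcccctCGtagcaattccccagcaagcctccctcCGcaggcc
S100z: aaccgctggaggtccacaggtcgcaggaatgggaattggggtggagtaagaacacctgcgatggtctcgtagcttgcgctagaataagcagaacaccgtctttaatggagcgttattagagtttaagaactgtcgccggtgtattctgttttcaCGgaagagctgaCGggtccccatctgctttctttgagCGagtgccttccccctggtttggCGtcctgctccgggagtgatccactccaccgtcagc
Tex101: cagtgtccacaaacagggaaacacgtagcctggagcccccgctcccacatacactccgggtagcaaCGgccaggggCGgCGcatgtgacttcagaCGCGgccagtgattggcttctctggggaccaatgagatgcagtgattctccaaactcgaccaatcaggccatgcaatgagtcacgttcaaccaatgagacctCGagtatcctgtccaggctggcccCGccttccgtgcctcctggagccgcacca

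In the Gm24463 stretch, 5 of 9 CpGs were measured and variable. Over them the hemicastrated mice stood at 0.978%, 0% and 44.1% and the sham mice at 0%, 1.09% and 68.5%. Hemicastrated mouse 3 and sham mouse 3 were methylated there and the other 4 mice were near 0, so the groups overlapped. The neighbouring tile, chr9:89066501-89067000, is also a member and split the mice the same way, with 31.2% in hemicastrated mouse 3, 34.3% in sham mouse 3 and at most 0.741% in the others. At Dpp7 all 12 measured positions, at 6 CpGs, spanned 25 points or more. The hemicastrated mice had levels of 46.5%, 42.3% and 7.57% and the sham mice of 27.5%, 53.5% and 56.6%. Hemicastrated mouse 3 was the low mouse and sham mouse 1 lay between it and the rest, and without hemicastrated mouse 3 the span fell to 29.1 points.

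The Arhgef2 stretch held 4 measured positions of its member tile, at 2 CpGs. They were at 0%, 44.6% and 91.0% in the hemicastrated mice and at 0%, 93.4% and 88.6% in the sham mice. Of the 6 mice, 2 read as unmethylated, 1 as intermediate and 3 as nearly fully methylated, in a mixture of both groups. Whether the mice differ in sequence at these CpGs was not tested. The 6 positions measured within 500 bp outside this tile did not follow it, with a difference of -1.03 points between the same highest and lowest mice. In the Septin9 stretch, 5 positions were at 13.6%, 21.8% and 16.3% in the hemicastrated mice and at 14.5%, 61.2% and 55.7% in the sham mice. Sham mice 2 and 3 were high and sham mouse 1 lay among the hemicastrated mice. The 8 positions before S100z were at 53.7%, 60.4% and 22.6% in the hemicastrated mice and at 39.7%, 76.5% and 56.1% in the sham mice. The groups overlapped there, with hemicastrated mouse 3 lowest and sham mouse 2 highest.

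At Tex101, the 8 positions were low in all mice, at 5.26%, 16.2% and 29.5% in the hemicastrated mice and at 9.41%, 25.6% and 0% in the sham mice. Between 10 and 24.1 reads per position lay behind these values, and the Wilson 95% intervals of the highest and the lowest mouse overlapped. In all, 44 RefSeq stretches of 250 bases held a measured position of a member. All 44 held CCGG, the MspI site that the method selects for, as did 47.8% of the 31396 stretches on these chromosomes. GGGCGG, read on both strands, was in 31.8% of the 44 and in 33.0% of all stretches. The median number of CpGs was 8 in the 44 and 6 in all. The set of all stretches includes those without any measured position, and some of the 44 overlap each other, as at Gm11419. These values therefore do not tell members from other measured stretches. A single member overlapped an annotated miRNA hairpin, Mir138-2, in chr8:94324001-94324500.

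Spans ran from the threshold to 97.7 points, with a median of 31.1, against a median of 3.73 in the other 66990 tiles. Of the members, 969 (43.2%) spanned less than 30 points, 135 spanned 50 or more and 11 spanned 75 or more. A further 307 tiles spanned 25 points or more but failed the condition on single positions. The 2 members nearest the threshold, chr10:6349501-6350000 and chr17:73096501-73097000, spanned 25 points. The 2 tiles just below it, in Fbxo6 at chr4:148149501-148150000 and in Rpl19-ps11 at chr8:19493001-19493500, spanned 24.996 points each. Membership at the lower end is therefore set by the threshold and not by a gap in the values, as the plot of spans shows.

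**Figure D1:**
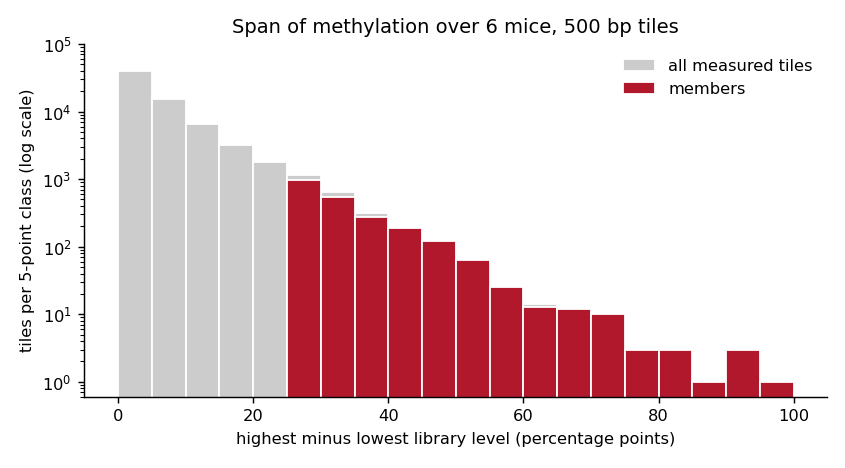
Number of 500 bp tiles (log scale) by span, the highest minus the lowest library level in percentage points, in classes of 5 points, for all 69233 measured tiles (grey) and the 2243 members (red). Counts fall without a gap across the threshold of 25 points, and 11 members spanned 75 points or more.

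Most members were tiles of intermediate methylation. Their median level over the mice was 54.0%, and 1879 (83.8%) had a mean level between 20% and 80%, as did 11.4% of the other tiles. A tile near 0% or 100% in most mice has less room to span 25 points, so the 7663 other tiles between 20% and 80% serve as the nearer comparison below. A member held a median of 5 measured positions at 4 CpGs, against 6 positions at 4 CpGs in the intermediate others. Of the members, 155 had their wide positions at a single CpG and 2088 at 2 or more.

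Depth differed as well. A member had a median of 36 reads per position per library and the intermediate others 53.1. Among tiles of intermediate level, 217 of 538 (40.3%) were members where depth was under 20 reads, and 148 of 1200 (12.3%) where it was 100 or more. The Wilson 95% intervals of the highest and the lowest mouse, taken with the mean reads per position as the number of reads, did not overlap in 1215 members (54.2%). This was so for 6.42% of members under 20 reads, for 56.8% of those from 30 to under 50 reads, and for all 173 with 100 or more. Among the 135 members that spanned 50 points or more, the intervals were apart in 134. These intervals cover counting error only, since PCR copies of a molecule are not independent. They are built from the same levels whose span chose the members, and they narrow as reads increase. Whether they are apart in a member therefore depends largely on its depth and on the span that the rule required. The shares with intervals apart are given as a description and are no separate test of a difference between mice.

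Positions within a member tended to rank the mice alike. In 1983 members (88.4%) every measured position was higher in the tile's highest mouse than in its lowest, and this was so for 47.4% of the intermediate others. In the median member 75% of positions had the same highest mouse as the tile, and in the median intermediate other tile 50% did. These shares use the values that chose the tiles and are given as a description.

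Positions outside a tile played no part in choosing that tile. Reads that cross its border can cover both sides, and the deposited counts per position do not show which reads are shared. Of the members, 666 had at least 2 positions with 10 or more reads in all libraries within 500 bp of their ends, and in 406 of them no member tile lay among these positions. In those 406 flanks the mouse that was highest in the tile exceeded the mouse that was lowest in it for 341 (84.0%), with a median difference of 13.3 points. The share was 60.1% over all tiles measured this way and 76.0% for the intermediate others, with a median of 4.45 points for the latter. In the other 260 flanks a second member tile was present, which the rule had chosen for its own span and which can be counted from both sides. There the share was 98.5% and the median 30.6 points, and over all 666 flanks the share was 89.6% (597) and the median 21.9 points.

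The difference between mice shrank with distance from the tile, as the plot of flank differences shows. The values by distance include flanks with a member tile. Within 100 bp the median was 25.4 points over 491 members, and from there to 250 bp it was 18.4 points over 269. Between 250 and 500 bp the median was 8.38 points, and between 500 and 1000 bp it was 1.77 points. Between 1000 and 2000 bp it was 0.427 points, with the same direction in 60.2% of 289 members, against 0.166 points and 55.9% beside the intermediate others. Positions inside the tile that were too thinly read for the rule gave a second reading, with the same limit on shared reads. In 1411 members with at least 5 such reads in both mice, the highest mouse was also higher in 1028 (72.9%), with a median difference of 14.3 points, against 60.3% and 4.55 points in the intermediate others.

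**Figure D2:**
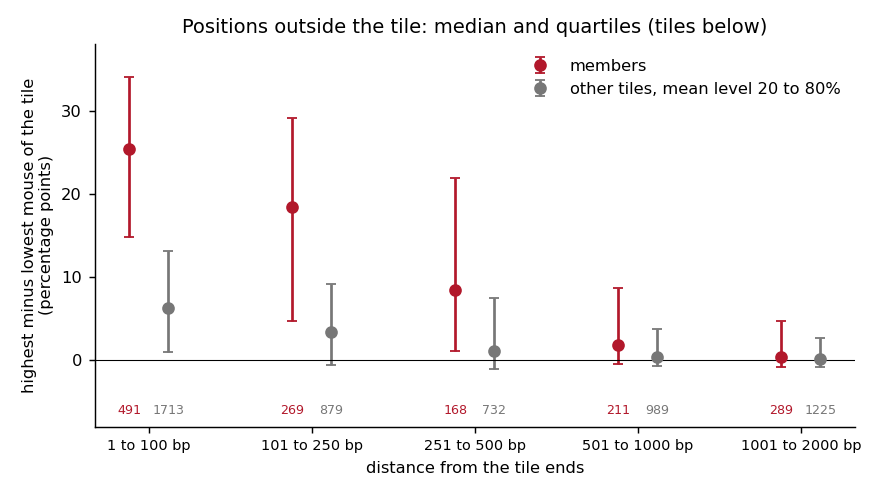
Difference in methylation level, in percentage points, between the mice that were highest and lowest in the tile, at positions outside the tile grouped by distance from its ends. Points are medians over tiles, bars run from the lower to the upper quartile, and the numbers under them count the tiles, those with a member tile in the flank included. The median beside members (red) fell from 25.4 points within 100 bp to 0.427 points beyond 1000 bp, and stayed below 7 points beside other tiles of intermediate level (grey).

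Members within 1000 bp of each other were joined, which gave 2101 regions. Of these, 1963 were single tiles, 135 joined 2 tiles, 2 joined 3 and 1 joined 4. Where 2 members touched, 93 of 131 pairs (71.0%) had the same highest mouse. For successive members 10 to 100 kb apart the share was 28.9%, and it was 23.0% beyond 1 Mb.

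The region of 4 tiles lay in Apc2, a relative of the tumour suppressor Apc, at chr10:80311501-80314000 with 68 positions. Its level was 41.1%, 40.9% and 34.4% in the hemicastrated mice and 48.1%, 65.5% and 57.1% in the sham mice. The groups did not overlap over the region, and sham mouse 2 was the highest in all 4 tiles. In the region at chr8:101106501-101108000, which lies in no annotated gene, hemicastrated mouse 1 stood apart at 43.7% over 23 positions. The other 2 hemicastrated mice were at 81.2% and 82.6% and the sham mice at 70.0%, 76.1% and 83.0%. The region in Lfng, which encodes a glycosyltransferase acting on Notch receptors, at chr5:140610001-140611500, had 14 positions. Its levels were 55.8%, 60.1% and 40.4% in the hemicastrated mice and 59.3%, 72.1% and 62.6% in the sham mice, with hemicastrated mouse 3 lowest in every tile.

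The 6 levels of a member were stepped where the widest gap between neighbouring mice took up at least 0.5 of the span, and graded otherwise. By this measure 1408 members (62.8%) were graded and 835 (37.2%) stepped. A single mouse stood low in 305 members and a single mouse stood high in 255. A pair of mice stood apart high in 109 members and low in 98. In 68 members the mice split 3 against 3. The 3 sham mice formed the high set in 8 of those 68 and the 3 hemicastrated mice in 0, while hemicastrated mouse 2 with sham mice 2 and 3 formed it in 11. The splits were counted in members only. No share over all tiles stands beside them, and they are not read as a group difference.

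Sham mice 2 and 3 were more often the highest, and this touches every count of direction, those of the splits above included. Sham mouse 2 was highest in 738 members (32.9%) and sham mouse 3 in 633 (28.2%), and each of the other 4 mice in 149 to 322. Hemicastrated mouse 1 was lowest in 628 (28.0%), hemicastrated mouse 3 in 532 and sham mouse 1 in 450. Over all members the mean level was 49.1%, 54.7% and 49.2% in the hemicastrated mice and 50%, 58.4% and 57.5% in the sham mice, so sham mouse 1 lay among the hemicastrated mice. The intermediate others showed the same 2 sham mice highest, with mean levels of 54.1%, 54.9% and 53.6% in the hemicastrated mice and 53.6%, 56.8% and 55.9% in the sham mice. With each library's mean deviation over those tiles removed, 2017 tiles met the rule, 1946 of them members. What sets these 2 libraries apart was not tested.

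**Figure D3:**
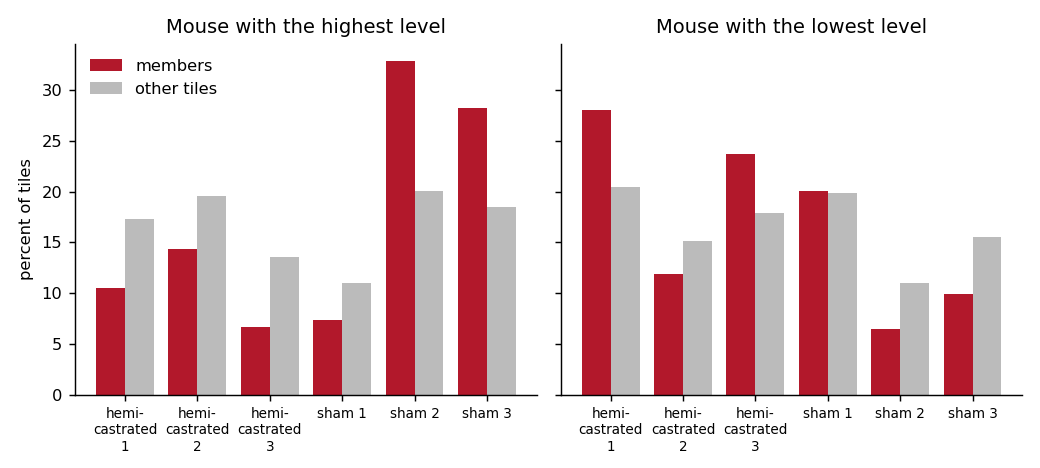
Percent of tiles in which each mouse had the highest (left) or the lowest (right) level, for the 2243 members (red) and the other 66990 tiles (grey). Sham mouse 2 was highest in 32.9% of members and hemicastrated mouse 1 lowest in 28.0%.

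The widest spans came from tiles with few positions. Of the 11 members that spanned 75 points or more, 10 had fewer than 5 positions. In a tile of Myo19, a myosin that binds mitochondria, at chr11:84901501-84902000, 4 positions at 2 CpGs gave the widest span of all. The hemicastrated mice were at 96.9%, 96.6% and 54.0% and the sham mice at 52.2%, 0% and 97.7%, with 63.7 to 77 reads per position. In Aldh4a1, an enzyme of proline breakdown, at chr4:139641001-139641500, the hemicastrated mice were at 2.08%, 92.0% and 50.1% and the sham mice at 0.870%, 59.6% and 53.6%. All 6 mice were within 10 points of 0%, 50% or 100% in 12 members (0.535%), of which 10 had fewer than 5 positions, and in 3 of the 11 widest. These 2 genes were named after their values were seen, and whether levels near 0%, 50% or 100% follow genotype was not tested.

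Among members with 5 or more positions the widest was chr11:114479001-114479500, 329 bp from the predicted gene Gm39471. Its 10 positions were at 74.7%, 54.6% and 8.80% in the hemicastrated mice and at 8.31%, 91.2% and 50.5% in the sham mice. Each group held both a mouse below 10% and a mouse above 70%. In Cyp4f39, a cytochrome P450 that acts on very long fatty acids, at chr17:32481501-32482000, the hemicastrated mice were at 20.4%, 25.4% and 19.7% and the sham mice at 21.6%, 67.8% and 94.1%. Sham mice 2 and 3 were high there and sham mouse 1 was not. In Hspa12a, a distant member of a heat shock protein family, at chr19:58816501-58817000, the hemicastrated mice were at 16.3%, 20.5% and 87.7% and the sham mice at 13.3%, 62.3% and 19.9%. Here hemicastrated mouse 3 and sham mouse 2 were high.

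C7 encodes a component of the complement membrane attack complex. Its member at chr15:4987501-4988000, near the gene's end, had 12 positions that all spanned 25 points or more, with levels of 24.7%, 19.1% and 51.1% in the hemicastrated mice and 23.8%, 60.8% and 91.8% in the sham mice. The mice were graded, and the groups overlapped through sham mouse 1. In Acacb, which makes malonyl-CoA at the mitochondrion, at chr5:114200001-114200500, the hemicastrated mice were at 88.0%, 27.4% and 66.7% and the sham mice at 57.7%, 17.1% and 68.7%. In Zfp469, a zinc finger gene, at chr8:122086001-122086500, hemicastrated mouse 2 was at 80% and hemicastrated mouse 3 at 6%, with the other 4 mice between 35.6% and 56.0%. The highest and the lowest mouse of that tile were thus in the same group. The other 3 of these 10 tiles, in Gm14497 and near Gm46033 and Tubg1, spanned 69.7 to 72.3 points.

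**Figure D4:**
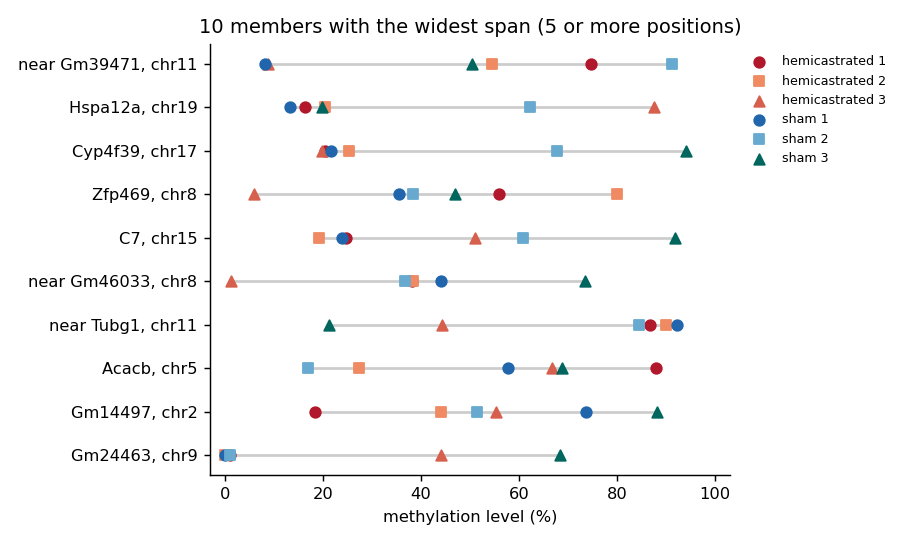
Methylation level in percent of the 10 members with the widest span among those with 5 or more positions. Each row is a tile, labelled by the gene it lies in or near, each point is a mouse (reds and oranges hemicastrated, blues and green sham), and the line joins the lowest to the highest. Mice of both groups lie on both sides in most rows, and no row separates the hemicastrated from the sham mice.

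Members with many positions differed in how many of these varied. In Tenm2, a cell adhesion gene of the nervous system, at chr11:36047001-36047500, all 46 positions spanned 25 points or more. The hemicastrated mice were at 66.6%, 53.0% and 49.4% and the sham mice at 36.3%, 86.0% and 53.5%, and sham mice 1 and 2 were the lowest and the highest. In Sstr3, a somatostatin receptor gene, at chr15:78539501-78540000, all 43 positions did so. Hemicastrated mice 2 and 3 and sham mouse 2 were at 52.3%, 51.0% and 57.7%, and hemicastrated mouse 1 and sham mice 1 and 3 at 25.3%, 18.1% and 15.1%, a split of 3 against 3 across the groups.

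Crocc, which encodes a protein of the ciliary rootlet, had the member with the most positions, 49, at chr4:141025001-141025500, of which 33 spanned 25 points or more. Hemicastrated mouse 1 was at 57.8% and the other 5 mice between 32.7% and 43.5%, and without that mouse the span was 10.9 points. In the predicted gene Gm6218, at chr12:54622501-54623000, the same mouse was at 85.8% and the others between 36.4% and 55.9%. In Trim47, a ubiquitin ligase gene, at chr11:116106001-116106500, sham mice 2 and 3 were at 67.7% and 59.8% and sham mouse 1 at 41.3%. The hemicastrated mice were between 35.0% and 39.0% there. At chr10:74925501-74926000, outside genes, hemicastrated mice 2 and 3 were at 61.9% and 58.4% and hemicastrated mouse 1 at 86.5%. The sham mice were between 89.8% and 92.1%. The groups did not overlap in either of these tiles. In Iqsec1, an exchange factor for ARF GTPases, at chr6:90905501-90906000, sham mouse 3 was at 74.8% and the others ran from 31.9% to 54.8%. That tile also overlaps the pseudogene Ppp1r2-ps2. In the tile shared by BC048644 and Car5a, at chr8:121916001-121916500, the mice split with hemicastrated mice 1 and 2 and sham mouse 3 high, between 56.7% and 60.1%, and 16 of 24 positions spanned 25 points or more. In Capn9, a calcium-dependent protease gene, at chr8:124617501-124618000, the hemicastrated mice were at 49.1%, 32.5% and 23.4% and the sham mice at 19%, 55.6% and 55.6%.

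**Figure D5:**
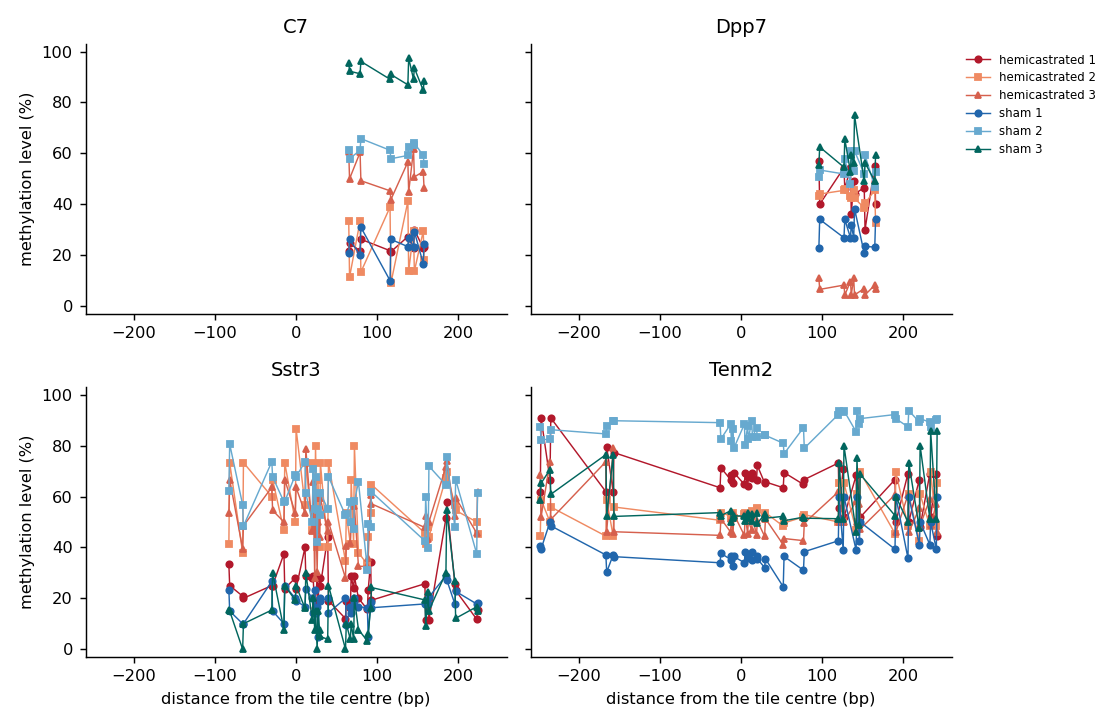
Methylation level in percent of each measured position against its distance from the tile's centre in bp, for the members in C7, Dpp7, Sstr3 and Tenm2. Each line is a mouse (reds and oranges hemicastrated, blues and green sham). In Tenm2 sham mouse 2 runs along the top, at 86.0% over the tile, and sham mouse 1 along the bottom, at 36.3%, through most of the 46 positions.

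The most deeply read members shared a pattern with the ribosomal repeat that the rule left out. In that copy of the repeat, which encodes ribosomal RNA and exists in many copies, 752 positions were at 27.5%, 37.6% and 11.1% in the hemicastrated mice and at 54.5%, 22.1% and 52.4% in the sham mice. From low to high the order was hemicastrated mouse 3, sham mouse 2, hemicastrated mice 1 and 2, sham mouse 3 and sham mouse 1. This order does not follow the groups. It recurred in 9 members (0.401%) and in 64 of all 69233 tiles (0.0924%).

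Those 9 included 4 of the 7 members with 200 or more reads per position. At chr6:3201001-3201500, outside genes, 6235 reads per position gave 39.8%, 54.8% and 17.7% in the hemicastrated mice and 61.8%, 33.8% and 61.7% in the sham mice. The next tile, chr6:3201501-3202000, had nearly the same levels. In the predicted gene Gm36876, at chr11:109011501-109012000, the levels were 30.4%, 46.3% and 12% in the hemicastrated mice and 59.6%, 27.9% and 56.2% in the sham mice. A tile where Cmss1 and Filip1l overlap, at chr16:57391001-57391500, had 32 positions at 26.7%, 50.8% and 4.13% in the hemicastrated mice and at 61.1%, 24.0% and 54.2% in the sham mice. Another of the 9, in Gm46595 at chr17:70963501-70964000 with 49.4 reads per position, ran from 13.6% in hemicastrated mouse 3 to 63.8% in sham mouse 1.

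The number of reads followed the same order. Per 1000000 calls of the library, a position of the ribosomal copy had 38.5, 45.1 and 20.4 reads in the hemicastrated mice and 60.0, 24.9 and 52.0 in the sham mice. At chr6:3201001-3201500 the depth per 1000000 calls was 82.4, 88.6 and 49.2 reads in the hemicastrated mice and 126, 59.2 and 110 in the sham mice. In Gm36876 it ran from 6.56 reads in hemicastrated mouse 3 to 19.5 in sham mouse 1. In these 3 places the order of the mice by depth was the same as that by methylation, and in the Cmss1 and Filip1l tile it was not. Whether these tiles take reads from the ribosomal repeat was not tested.

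The other 3 deep members had orders of their own. In Cwc22, a splicing factor gene lying in a segment known to vary in copy number among mice, at chr2:77946001-77946500, hemicastrated mouse 3 was at 32.8% over 22 positions and the other 5 mice between 0.534% and 8.02%. Depth per 1000000 calls was highest in the same mouse, at 13.6 reads, and between 8.33 and 12.2 in the others. In Ppp1r2-ps5, a pseudogene, at chr17:6492501-6493000, sham mouse 3 was at 53.0%, hemicastrated mouse 1 at 30.9% and the others between 10.7% and 23.1%, and the same 2 mice had the most reads, 5.19 and 4.67 per 1000000 calls. In Sfi1, a gene for a centrosome protein, at chr11:3193501-3194000, hemicastrated mouse 1 was at 35.5% and the others between 55.1% and 63.9%. That mouse also had the fewest reads there, 8.49 per 1000000 calls, against 9.54 to 12.4 in the others. The tile before it, chr11:3193001-3193500, again had hemicastrated mouse 1 low, at 36.8% against 59.9% to 66.0%, and 34 of its 43 positions spanned 25 points or more. What part read depth or copy number has in these values was not tested. A depth of 200 reads was reached by 0.312% of members and by 0.300% of the other tiles.

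Of the members 1272 (56.7%) lay inside a RefSeq gene, as did 56.8% of the intermediate others and 74.6% of all other tiles. Within 1000 bp of an annotated gene start lay 254 members (11.3%), against 10.2% of the intermediate others and 31.3% of all others. A gene start fell within 68 members (3.03%), against 1.64% and 12.4%. Pseudogenes held 3.79% of members, 3.34% of the intermediate others and 1.41% of all others. Long noncoding RNA genes held 12.2% of members, 9.63% of the intermediate others and 10.6% of all others. By chromosome the share of tiles that were members ran from 2.40% on chromosome 19 to 4.12% on chromosome 6.

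Gene families and lists were counted over tiles in or within 5000 bp of a gene, against the 3.24% of all tiles. Zinc finger genes named Zfp had 30 members among 1047 tiles (2.87%), olfactory receptor genes 9 among 119 (7.56%) and vomeronasal receptor genes 7 among 120 (5.83%). Genes of the major histocompatibility complex named H2- had 4 among 44 (9.09%), and protocadherin genes named Pcdh 3 among 125 (2.40%). Genes named Gm or ending in Rik, mostly predicted or uncharacterised, had 3.63% and 2.74%. These counts are small and no test was made of them.

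The 4 genes C7, Zfp180, Dpp7 and Akap7 were listed because earlier results of these data had shown variable tiles there, so that 5 members among 11 tiles is no independent count. At the start of Zfp180, a zinc finger gene, in chr7:24082001-24082500, the hemicastrated mice were at 45.1%, 28.4% and 0.734% and the sham mice at 0.350%, 32.3% and 0.240%. With 104 to 317 reads per position, 3 mice were near 0 and 3 clearly methylated, across both groups. In Akap7, which anchors protein kinase A, the tile at chr10:25299001-25299500 ran from 32.3% in hemicastrated mouse 3 to 73.2% in sham mouse 2. The tile at chr10:25233001-25233500 ran from 51.9% in sham mouse 1 to 84.6% in sham mouse 2.

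A list of 14 genes named loci known to vary between inbred mice through a retroelement. All 14 symbols were in the annotation and 12 had measured tiles, with 4 members among 54 tiles (7.41%). In a, the agouti coat colour gene, the member at chr2:154970001-154970500 ran from 50% to 79.0%. In Bmf, a gene that promotes cell death, the member at chr2:118544501-118545000 was at 58.7%, 37.4% and 36.9% in the hemicastrated mice and at 41.7%, 33.7% and 62.6% in the sham mice. In Marveld2, a tight junction gene, it ran from 25.5% to 53.0%, and in Eps8l1 from 11.4% to 36.9%. The hemicastrated mice were all above the sham mice in the Eps8l1 tile. The intervals of the highest and the lowest mouse overlapped in a, Marveld2 and Eps8l1, and were apart in Bmf. Whether the KM mice carry these retroelements, and whether these tiles lie at them, was not examined.

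Imprinted genes had 7 members among 128 tiles (5.47%), from 34 of 35 listed symbols that were in the annotation. In Usp29 the member at chr7:6948001-6948500 spanned 42.3 points, from 20.7% in hemicastrated mouse 1 to 63.0% in sham mouse 3. The second Usp29 member, at chr7:6770001-6770500, ran from 34.8% to 62.1%. The members in Peg3, Gnas, Mest and Dlk1 spanned between 25.7 and 31.3 points, and the intervals of their highest and lowest mice overlapped. Of 15 germline genes that somatic cells keep methylated, Tex101 and Hormad1, a gene of the meiotic chromosome axis, had a member each among 22 tiles. The Hormad1 tile at chr3:95559001-95559500 ran from 17.2% to 42.3%, and 16 positions beside it went the other way by -11.9 points.

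The DNA methylation machinery had 3 members among 60 tiles, from 11 of 12 listed symbols. In Dnmt1, the maintenance enzyme itself, the member at chr9:20958501-20959000 lay 888 bp from the gene's start. Its 8 positions were at 57.2%, 33.5% and 62.5% in the hemicastrated mice and at 49%, 72.0% and 53.1% in the sham mice, with 61.4 to 93.9 reads per position. Sham mouse 2 was highest and hemicastrated mouse 2 lowest, and the intervals of these did not overlap. In Tet1, at chr10:62879501-62880000, the levels ran from 61.9% to 87.5%, and in Zfp57, which protects imprints, at chr17:37009501-37010000, from 57.8% to 83.3%. For both of these the intervals of the highest and the lowest mouse overlapped.

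Hemicastrated and sham mice were compared over all tiles with edgeR's quasi-likelihood test on methylated and unmethylated counts, to ask whether methylation differed with loss of the other testis. Of 71149 tiles tested on chromosomes 1 to 19, X and Y, 0 (0%) passed an adjusted p of 0.05, and so 0 of the members. At an unadjusted p under 0.05 there were 3039 tiles (4.27%), and 304 members (13.6%). A group difference is itself part of the span that chose the members, so this share is not read further. In 1532 members the hemicastrated mean was the lower and in 711 the higher, with a median difference of -5.40 points. Over all tested tiles the hemicastrated mean was the lower in 51.5%, with a median difference of -0.0208 points. The 3 hemicastrated mice were all below the 3 sham mice in 177 members (7.89%, against 4.92% of all tiles) and all above in 55 (2.45%, against 4.61%). The mean level over members was 51.0% in the hemicastrated and 55.3% in the sham group, and sham mice 2 and 3 stood above the other libraries in tiles that were not members too.

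The member with the smallest p, 70665 bp from Skap2 at chr6:51788001-51788500, was at 71.2%, 65.0% and 60.5% in the hemicastrated mice and at 95.3%, 97.2% and 94.9% in the sham mice. The groups did not overlap, and the means were 65.6% ± 5.39 and 95.8% ± 1.23 (SD, n = 3 each), with an adjusted p of 0.108 (edgeR). In Irak1bp1, at chr9:82838001-82838500, the means were 48.3% ± 0.616 and 75.3% ± 1.77 (SD, n = 3 each), with an adjusted p of 0.642 (edgeR). Only 1 CpG was wide in that tile, and likewise in the third, chr9:115622001-115622500, with means of 41.5% and 69.0% and an adjusted p of 0.678 (edgeR). Within 500 bp of the third, 15 positions measured outside the tile did not follow it, with a difference of -2.85 points.

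Among members higher in the hemicastrated mice, the smallest p-values were in Halr1, a long noncoding RNA gene, in Meg3, an imprinted noncoding RNA gene, and at chr18:81398001-81398500. All 3 had an adjusted p of 1 (edgeR). In Halr1, at chr6:52104001-52104500, the hemicastrated mice were at 27.7%, 22.4% and 36.9% and the sham mice at 15.4%, 13.8% and 11.8%. In Meg3, at chr12:109549501-109550000, they were at 51.4%, 29.5% and 40.0% and the sham mice at 19%, 17.3% and 24.2%. The groups did not overlap in these tiles, and none of the differences passed the test over all tiles.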

How the data were processed

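Reduced representation bisulfite libraries came from 6 right testes, 3 hemicastrated and 3 sham-operated. Per the labels' protocols, DNA was cut with MspI, size-selected, treated with bisulfite (Zymo kit) and amplified, and an Illumina GAII was used for sequencing. Per the submitters' processing notes, Bismark, TopHat2 2.0.11 and GRCm38 were used, with no role stated. Bismark's version and any trimming, duplicate removal or strand joining are, in the sources used here, not stated. For each library the authors deposited cytosine positions with methylated and unmethylated read counts, not normalized, and the level in percent, which equals the methylated share of the counts. Strand and context are not named. Of the measured positions inside RefSeq promoter stretches, 125582 of 125590 fell on a CpG of GRCm38.p6, and each strand's cytosine was kept as its own position. Calls on mitochondrial DNA were methylated in 0.478% to 0.617%.

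Counts were summed over tiles in Python 3.11.15 (numpy 2.4.6, pandas 2.3.3, scipy 1.17.1). Tiles with at least 3 positions of 10 or more reads in all libraries were tested with edgeR 4.0.16 in R 4.3.3 (limma 3.58.1), by a quasi-likelihood F test with a term for each library and for methylation by group, with Benjamini-Hochberg adjustment at 0.05. The procedure was tested on simulated data with the same spread between mice in all tiles. That does not show how it performs in tiles as variable as the members. Replicates are separate mice per the labels. Gene annotation and sequences are from RefSeq.

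The members, the gene lists and the tests were chosen with earlier results of these data known. Tiles named are the 10 widest with 5 or more positions, the 2 with the most positions for each split of the mice, the 3 smallest p-values in each direction, the 3 largest regions, those at listed genes, those at the threshold and the 5 with the most reads near a named gene's boundary. Others are said to be chosen after their values were seen, as are the deepest members and those ordered like the ribosomal repeat. Alternatives varied the thresholds, tile positions, libraries and tests.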

Additional observations from a re-analysis of the deposited data

How the results depend on the processing

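The number of members was 3898 at a span of 20 points, 1233 at 30 points, 1326 with 20 reads, 3405 with 5 reads and 1150 with 5 or more positions. Tiles shifted along the genome (2216), unweighted means (2284), the most deeply read positions left out (2239), no condition on single positions (2550) and strands joined to CpGs (1921) stayed within 1.5 times of 2243. So did leaving out each library (1738 to 2134) and removing library offsets (2017), the last chosen after seeing the data. A similar count did not mean the same tiles: with strands joined, 1511 of the 2243 members were kept. Over all measured flanks, member tiles in them included, the tile's highest mouse was higher in 86.3% at 1000 bp, in 89.0% with 20 reads and in 87.2% to 89.4% without 1 library. With a gap of at least 0.6 of the span, 17.4% of members were stepped. In thinly read positions the share was 70.4% to 74.2% without 1 library, an alternative also added after seeing the data, and the cause was not tested.

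The test of hemicastrated against sham mice called 0 tiles under all alternatives run, with a smallest adjusted p of 0.0558 with a robust prior, 0.576 with limma on log2 ratios, 0.165 with 20 reads and 0.0774 to 0.266 without 1 library. With the replicate number as a block it also called 0 tiles (smallest adjusted p 0.439). Same-numbered mice had deviations that correlated at 0.0614, 0.0859 and 0.0346 across all tiles, and differently numbered mice at -0.0978 to 0.0351. In members these were 0.0288, 0.0372 and 0.0785, against -0.0674 to 0.0272. The main test did not take the numbers as pairs. At an unadjusted p under 0.05 (edgeR) there were 429 members with the block and 304 without it. Of the named members' group differences, Marveld2's moved from 0.0629 to -1.31 points with 20 reads. In 25 of 60 named members the sign of the group difference changed on leaving out 1 mouse. Of 360 spans of named members without 1 library, 331 moved by less than the SD over the mice or not at all, and 29 by more. Leaving out a mouse that is neither the highest nor the lowest cannot change a span. Many of the 331 were therefore fixed in advance and do not show that spans hold without single mice. Depth limits the members under 20 reads per position, of which 6.42% had intervals apart.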
